A study of Mus musculus with 113 samples.

Results

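The 10 Sox genes described here were taken by symbol from the 4 deposited expression tables, which together hold 23739 gene symbols. They are the SoxB1 genes Sox1, Sox2 and Sox3, the SoxB2 gene Sox21, the SoxC genes Sox4, Sox11 and Sox12, the SoxD genes Sox5 and Sox6, and Sox9. All 10 are in the tables of SFEB cell populations, adherent monoculture and E14 cells, and 9 are in the single-cell table, which has no row for Sox5. The study followed mouse embryonic stem cells (mESCs) as they turned into neural cells. R1 mESCs were differentiated as floating aggregates without serum (SFEB culture), giving a first series of 14 population samples from 0 to 142 h, a parallel series of 8 population samples from 0 to 216 h, and 8 single cells at each of the 8 parallel time points. R1 cells were also differentiated as an adherent monoculture in N2B27 medium, with 15 samples from 0 to 216 h. E14 mESCs, wild type (WT) or carrying a Fyn deletion (Fyn KO), were sequenced at day 0 and day 4 of neural induction with 3 replicates in each of the 4 groups. The Fyn KO line is 1 clone in which Cas9 cut out the start of the coding region of Fyn, a Src-family kinase, and the labels of the E14 samples do not say which of both culture forms was used. Each R1 population sample is 1 library, and only 0 h was sampled in both SFEB series, so the other time points have no replicate error.

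Sox proteins bind DNA through a high mobility group (HMG) box and mostly act with partner factors. Sox2 holds mESCs in the pluripotent state together with Oct4, and all the SoxB1 genes later keep neural cells as dividing progenitors, with Sox1 as a classic mark of neuroectoderm. Sox21 represses targets that SoxB1 factors activate, SoxC factors are known from neural cells that leave the progenitor state, SoxD factors have no activation domain of their own and modulate other Sox factors, and Sox9 is known from neural stem cells and the switch to glia.

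The start of the HMG box shows how close the members are. The first 60 bases of the box-coding stretch are printed for the 9 members with a coding sequence in GENCODE M1 (build NCBIM37), and capitals mark the 29 positions at which all 9 carry the same base.
Sox2: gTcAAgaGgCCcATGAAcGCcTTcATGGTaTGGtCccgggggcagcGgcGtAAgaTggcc
Sox3: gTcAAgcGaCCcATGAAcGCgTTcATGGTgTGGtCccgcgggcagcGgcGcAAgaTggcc
Sox21: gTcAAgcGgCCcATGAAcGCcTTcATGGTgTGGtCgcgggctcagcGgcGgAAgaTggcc
Sox4: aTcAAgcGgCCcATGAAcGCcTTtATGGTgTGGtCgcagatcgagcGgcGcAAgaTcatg
Sox11: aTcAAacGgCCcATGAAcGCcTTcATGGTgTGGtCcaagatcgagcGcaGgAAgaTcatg
Sox12: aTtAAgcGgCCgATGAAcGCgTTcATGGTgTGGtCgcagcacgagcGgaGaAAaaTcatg
Sox5: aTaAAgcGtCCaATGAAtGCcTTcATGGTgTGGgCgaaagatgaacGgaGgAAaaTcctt
Sox6: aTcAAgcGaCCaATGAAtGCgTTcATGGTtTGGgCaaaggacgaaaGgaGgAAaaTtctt
Sox9: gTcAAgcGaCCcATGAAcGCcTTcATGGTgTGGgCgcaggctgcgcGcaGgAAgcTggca
Each stretch lies within 1 coding exon, for example chr3:34549464-34549523 on the plus strand for Sox2, chr12:28027070-28027129 on the minus strand for Sox11 and chr11:112644211-112644270 on the plus strand for Sox9. Over the 207 bases compared, Sox4 and Sox11 were the closest pair at 90.3% identical bases, Sox2 matched Sox21 and Sox3 at 87.9% each, and Sox6 and Sox9 were the least alike at 56.0%. The longest run of identical bases between the transcripts of any pair of members was 48 bases, in Sox4 and Sox11. Sox2 lies inside the long non-coding gene Sox2ot on the same strand, so reads in the overlap could be assigned to either gene. Sox2ot was listed at 0.491 to 12.3 FPKM in the first SFEB series, against 58.7 to 139 FPKM for Sox2.

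Upstream sequence is shown for a SoxB1 pair with opposite starting levels, Sox2, which was high in the starting cells, and Sox1, which was low there. The 250 bases before each start are given from RefSeq (GRCm38.p6), with matches to the Sox motifs ACAAAG and ACAATG, searched on both strands, in capitals.
Sox2: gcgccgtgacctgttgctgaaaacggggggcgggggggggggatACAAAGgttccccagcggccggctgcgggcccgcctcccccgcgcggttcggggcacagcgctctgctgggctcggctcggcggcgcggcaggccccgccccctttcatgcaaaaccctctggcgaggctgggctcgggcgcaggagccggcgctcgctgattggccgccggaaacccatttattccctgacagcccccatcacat
Sox1: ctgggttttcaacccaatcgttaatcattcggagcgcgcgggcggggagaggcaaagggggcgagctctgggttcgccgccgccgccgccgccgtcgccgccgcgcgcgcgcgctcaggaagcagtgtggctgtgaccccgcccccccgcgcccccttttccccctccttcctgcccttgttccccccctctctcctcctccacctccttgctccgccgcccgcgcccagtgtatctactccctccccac
These lie at chr3:34649745-34649994 and chr8:12395269-12395518, both on the plus strand. Sox2 has 1 match to ACAAAG and the Sox1 window has none of either motif, while 25.2% of the 32851 promoter windows hold at least 1. Of the 8 members with an entry, 3 hold a match at 1 or more of their starts, namely Sox2, Sox5 and Sox6. Counted by windows as in that share, 7 of the 13 member starts hold a match, 5 of them among the 6 starts of Sox6. The Sox2 and Sox1 windows printed are rich in G and C, at 72% in Sox2 and 71.2% in Sox1 against a median of 52.4% over all windows.

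In the SFEB populations the mRNA of all members but Sox2 was higher at the end of the time course than at the start, and Sox2 began at the highest level. A limma F test of a smooth change over time passed for 10 of 10 members in SFEB culture, where 87.9% of the 13363 genes tested passed (47.9% upwards), and for 9 of 9 tested members in adherent culture, where 70.7% of 12879 genes passed (42.2% upwards and 28.4% downwards). Sox6 was too low in adherent culture to be tested. With so many genes changing, passing this test does not set the members apart, and the sizes and shapes are given below in FPKM, which is per transcript length. In bulk samples a lower level can come from fewer cells of a type or from less RNA per cell, which cannot be told apart. Marker genes of other cell types moved beside these values, and the part of such cells was not tested. Summed FPKM of 10 fibroblast genes, the cell type used as feeders for mESCs and here removed by a feeder-free passage according to the methods, was 837 and 887 in both SFEB samples at 0 h and 363 in adherent culture at 0 h, and it fell to 17.9 at 142 h in the first series and 54.9 at 216 h in adherent culture. In the parallel series it fell to 35.9 at 106 h and was 109 at 216 h. Summed FPKM of 12 neural progenitor genes rose from 60.3 at 0 h to 992 at 142 h in the first SFEB series and from 51.5 to 690 in adherent culture, and 12 of 12 of these genes passed the test upwards in each culture. The 11 neuronal genes in these tables summed to 193 FPKM at 0 h and 757 at 142 h in the first series, to 155 at 0 h and 1195 at 216 h in the parallel series and to 285 and 1168 in adherent culture, with 10 passing upwards and 1 downwards in SFEB and 11 upwards in adherent culture. The 11 pluripotency genes fell from 1496 to 92.2, from 1702 to 205 and from 1691 to 219 FPKM over the same spans, and all 11 passed downwards in each culture.

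**Figure D1:**
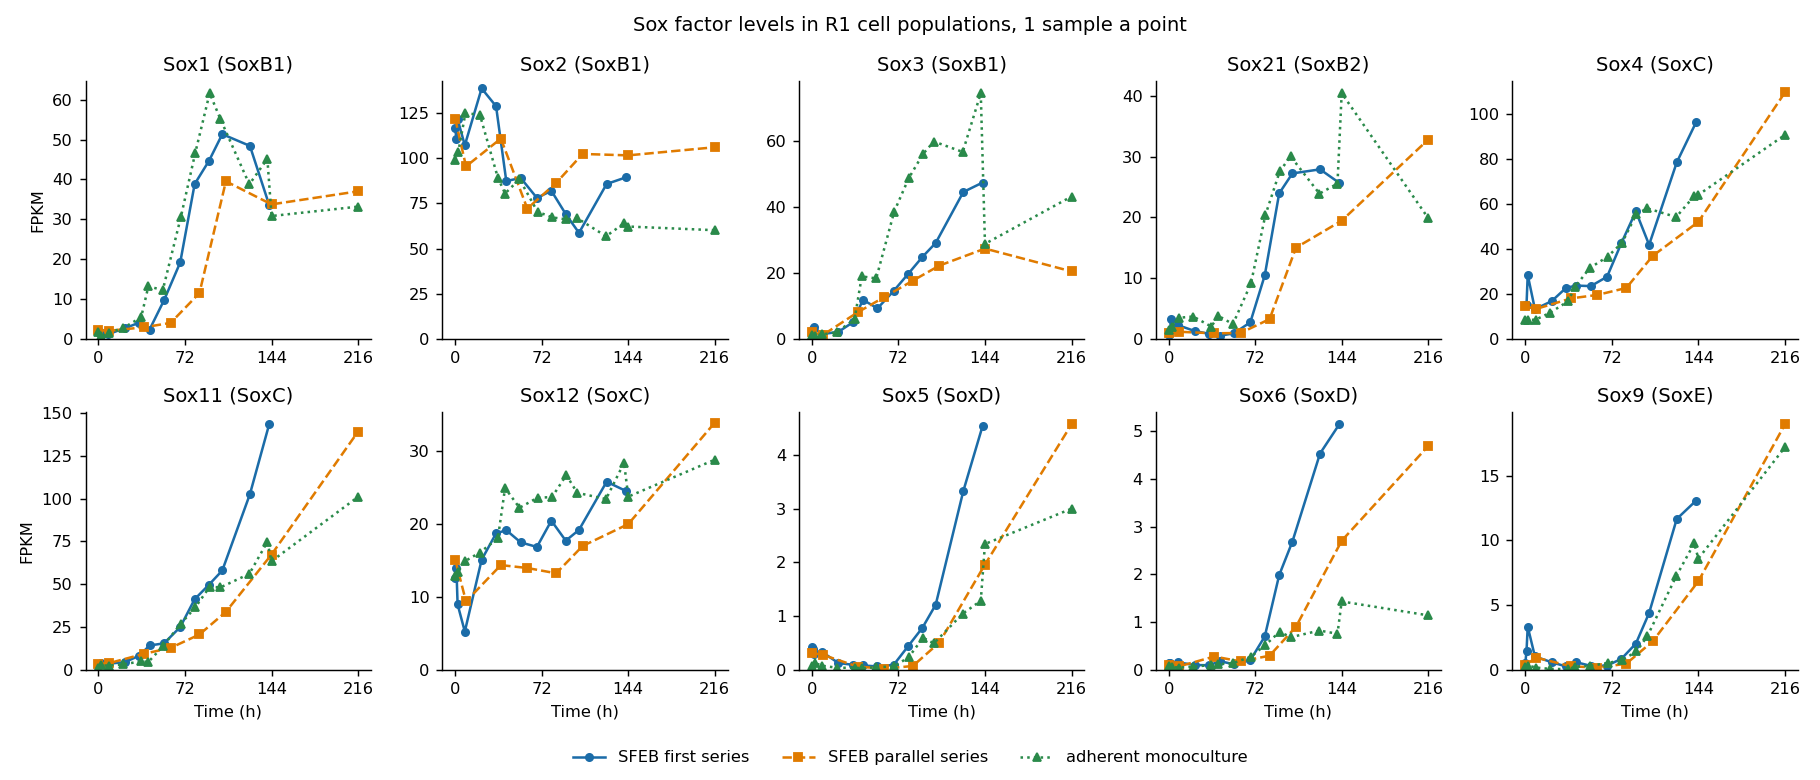
FPKM of each member (vertical axis) against hours of neural induction (horizontal axis) in the first SFEB series, the parallel SFEB series and adherent monoculture, with each point 1 library and each panel on its own scale from 0. Sox2 starts at 99.3 to 122 FPKM while Sox5, Sox6 and Sox9 are below 1 FPKM near 60 h.

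Sox2 dipped and came back up in SFEB culture, while in adherent culture it fell and stayed lower. In the first SFEB series Sox2 was 117 FPKM at 0 h, 139 at 22 h, 58.7 at 103 h and 89.5 at 142 h, with a median of 89.3 over the 14 samples. In the parallel series it was 122 FPKM at 0 h, 72.2 at 60 h, 102 at 144 h and 106 at 216 h. The low point came earlier in the parallel series. In adherent culture Sox2 was 99.3 FPKM at 0 h, reached 125 at 8.5 h, and from 68.5 h onwards stayed between 56.8 and 70.4 FPKM. The F tests gave adjusted p = 0.00251 in SFEB and 3.07e-05 in adherent culture (limma, Benjamini-Hochberg). The mean of the last 5 samples lay 0.25 below that of the first 5 on the log2(FPKM + 1) scale in SFEB, where the fit scattered by 0.24, and fell by 0.78 in adherent culture.

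Sox1 and Sox3, the SoxB1 genes that join Sox2 in neural progenitors, were low at the start. Sox1 ranged from 1.01 to 51.4 FPKM in the first SFEB series (median 6.83), with the highest value at 103 h and 33.6 FPKM at 142 h. In the parallel series Sox1 went from 3.96 FPKM at 60 h and 11.4 at 84 h to 39.5 at 106 h and 37.0 at 216 h. In adherent culture it climbed to 61.7 FPKM at 92.5 h and stood at 33.2 at 216 h, so that in every series Sox1 peaked before the last sample. Sox3 ranged from 1.35 to 47.4 FPKM in the first series (median 10.5), from 1.09 to 27.4 in the parallel series (median 15.1) and from 0.918 to 74.6 in adherent culture (median 28.8). The 2 SFEB samples at nearly the same time gave unlike Sox3 levels, 47.4 FPKM at 142 h in the first series and 27.4 at 144 h in the parallel one. Of the 10 members 8 were lower in that parallel sample, at 0.432 (Sox5), 0.470 (Sox11), 0.524 (Sox9), 0.526 (Sox6), 0.541 (Sox4), 0.577 (Sox3), 0.757 (Sox21) and 0.815 (Sox12) of the 142 h level, while Sox1 was at 1.004 and Sox2 at 1.14, so values at 142 h hold for the first series. The SD of the log2 ratio over all genes was 0.55 between these 2 samples. Marker sums differed between them too, at 92.2 FPKM in the first and 483 in the parallel sample for 11 pluripotency genes, 992 and 537 for 12 neural progenitor genes and 757 and 435 for 11 neuronal genes, and their part was not tested. In adherent culture Sox3 was 74.6 FPKM at 140.5 h and 28.8 at 144 h, a log2 change of -1.34 against an SD of 0.53 over all genes between those 2 samples. Sox21 moved the other way between the same samples, from 25.5 to 40.4 FPKM, as did Sox5 at 1.82 and Sox6 at 1.90 times the 140.5 h level. Sox1 was at 0.682 of that level, and the other 5 members lay between 0.836 and 1.01. The 7 endoderm genes in the adherent table summed to 44.2 FPKM at 140.5 h and 116 at 144 h, with Sox17 at 1.95 and 10.9, and their part was not tested. On the log2 scale the last 5 samples exceeded the first 5 by 3.99 for Sox1 and 3.25 for Sox3 in SFEB and by 3.78 and 4.17 in adherent culture, with adjusted p from 1.36e-11 to 5.04e-08 in the 4 F tests.

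The make-up of the SoxB1 group therefore shifted from 1 gene to 3. Sox2 gave 96.9% of the summed SoxB1 FPKM at 0 h in the first SFEB series, 96.7% in the parallel series and 97.4% in adherent culture. It gave 42.2% at 103 h in the first series, 62.4% at 106 h in the parallel series and 36.0% at 92.5 h in adherent culture. Sox1 gave 36.9%, 24.1% and 33.5% in those 3 samples. At the last sample of each series the share of Sox2 was 52.5%, 64.9% and 44.1%. Sox3 reached 40.6% at 140.5 h in adherent culture, above Sox2 at 34.8% in that sample, while in SFEB culture Sox2 had the largest share of the 3 in every sample.

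**Figure D2:**
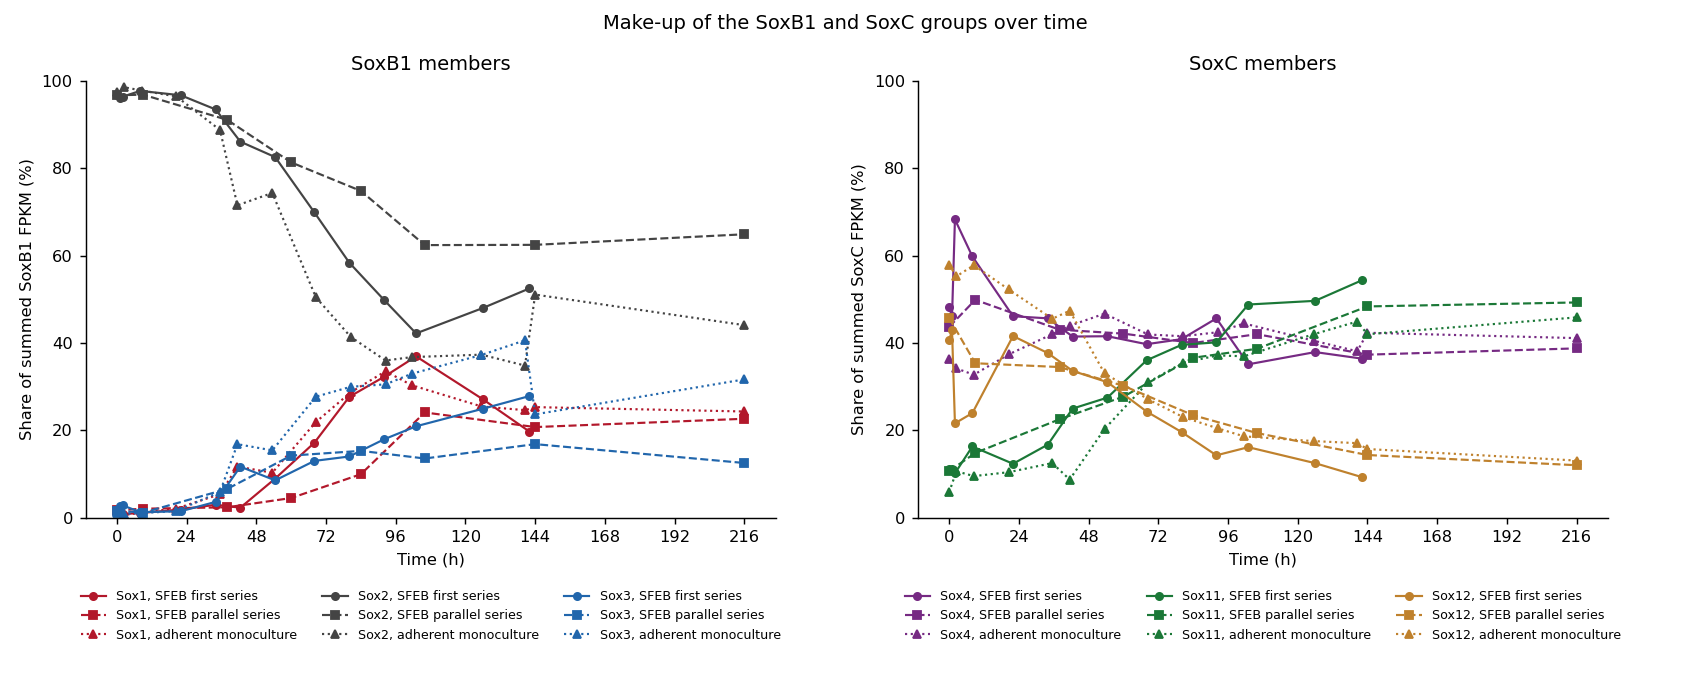
Share of the summed FPKM of the SoxB1 genes (left) and of the SoxC genes (right) that each gene gave (%, vertical axis) against hours of neural induction, with colours for genes and markers for the 3 R1 series. Sox2 drops from over 96% to between 36.0% and 62.4% near 100 h, and Sox12 gives way to Sox11 in the SoxC group.

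Sox21, the SoxB2 repressor, rose late in each series. It was 0.890 FPKM at 54.5 h, 2.70 at 68 h, 10.4 at 80 h and 23.9 at 92 h in the first SFEB series. In the parallel series it was 3.22 FPKM at 84 h, 14.99 at 106 h and 32.8 at 216 h, and in adherent culture 2.39 at 53.5 h, 20.3 at 80.5 h and 40.4 at 144 h. In the first series the late rise came after a brief one, to 3.29 FPKM at 2 h. The change over time gave adjusted p = 2.25e-10 in SFEB and 6.80e-07 in adherent culture.

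The SoxC genes started at different levels. Sox11, known from maturing neurons, rose from 3.46 FPKM at 0 h to 143 at 142 h in the first SFEB series (median 14.8), from 3.50 to 139 at 216 h in the parallel series and from 1.28 to 101 in adherent culture. Sox11 was highest at the last time point of every series. Sox4, its closest relative by box sequence, was already at 14.98 and 14.4 FPKM at 0 h in the SFEB series and reached 96.1 at 142 h and 109 at 216 h. In adherent culture Sox4 went from 8.09 to 90.6 FPKM. Sox12 was 12.6 FPKM at 0 h, 5.23 at 8 h and 24.5 at 142 h in the first series, and 15.1, 9.36 at 9 h and 33.8 at 216 h in the parallel series. The early dip of Sox12 was seen in both SFEB series and not in adherent culture, where Sox12 was 12.9 FPKM at 0 h, 14.9 at 8.5 h and 28.8 at 216 h. The last 5 samples exceeded the first 5 on the log2 scale by 4.22 for Sox11, 2.01 for Sox4 and 1.09 for Sox12 in SFEB, with adjusted p = 6.42e-15, 1.33e-10 and 0.000126. Within the SoxC group Sox12 fell from 40.7% of the summed FPKM at 0 h to 9.27% at 142 h and Sox11 rose from 11.1% to 54.3%, while Sox4 ended at 36.4%.

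Starting levels of Sox4 can be set beside those in E14 cells. The 3 WT E14 samples at day 0 had 1.81, 1.85 and 0.856 FPKM of Sox4, where the R1 samples at 0 h had 8.09 to 14.98. Sox9, also low in E14 cells at day 0 at 0 to 0.0118 FPKM in WT, was 0.511 and 0.363 FPKM at 0 h in SFEB culture. These tables were made separately, so the levels are only set side by side. The fibroblast genes summed to 1.299 to 1.81 FPKM in the WT E14 samples at day 0 and to 363 to 887 in the R1 samples at 0 h, and their part in the Sox4 and Sox9 levels was not tested.

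At 2 h in the first SFEB series some members were above their level at 0 h and others below it. Against the mean of both 0 h samples, the 2 h sample had 7.63 times as much Sox9 (3.33 against 0.437 FPKM), 4.55 times as much Sox21 (3.29 against 0.723 FPKM) and 1.93 times as much Sox4 (28.3 against 14.7 FPKM). Sox3 stood at 1.69 times its 0 h level, Sox11 at 1.21 and Sox2 at 1.02, while Sox5 was at 0.793, Sox6 at 0.703, Sox12 at 0.646 and Sox1 at 0.545. Of 12213 genes with at least 1 FPKM at 0 h, 10.9% were at least 1.5 times as high at 2 h, and Sox9 and Sox21 lie below that limit, so they are not part of that share. Sox9 was 1.44 FPKM already at 1 h, when Sox4 was still at 14.98, and by 8 h Sox4 was back at 13.1 FPKM and Sox9 at 1.03. Only 0 h was sampled in more than 1 SFEB library, where the higher value was 1.01 to 1.49 times the lower over the 10 members (1.41 for Sox9, 1.49 for Sox21 and 1.04 for Sox4), and the 2 h value has no error. In adherent culture the nearest sample, at 2.5 h, had 8.31 FPKM of Sox4 and 0.330 of Sox9 against 8.09 and 0.178 at 0 h. Sox21 there was 1.36 FPKM at 0 h, 1.98 at 2.5 h, 3.43 at 8.5 h, 3.65 at 20.5 h and 1.99 at 35.5 h.

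The SoxD genes and Sox9 reached their highest levels late. Sox5 was below 1 FPKM until 92 h and reached 4.54 FPKM at 142 h in the first SFEB series and 4.57 at 216 h in the parallel one. Sox6 went from 0.698 FPKM at 80 h to 5.14 at 142 h in the first series and reached 4.69 at 216 h in the parallel series, but its highest value in adherent culture was 1.43 FPKM at 144 h. Sox5 in adherent culture reached 3.002 FPKM at 216 h. Sox9 was 0.850 FPKM at 80 h, 4.39 at 103 h and 13.1 at 142 h in the first series, 19.0 at 216 h in the parallel series and 17.2 at 216 h in adherent culture. Adjusted p for these genes lay between 9.51e-10 and 2.53e-09 in SFEB, and was 1.34e-07 for Sox5 and 1.98e-09 for Sox9 in adherent culture. Summed FPKM of glial genes, a later fate of such progenitors, moved from 14.5 at 0 h to 34.0 at 142 h in the first series over the 5 of 10 listed genes in that table, and from 5.45 to 40.4 at 216 h over the 6 in the adherent table, and 3 of the 5 glial genes tested in SFEB passed upwards and 2 downwards, as did 2 and 2 of the 4 tested in adherent culture. Of 7 tested neural crest genes 2 passed upwards and 5 downwards in SFEB, and 4 and 3 in adherent culture. Of 3 tested cartilage genes in SFEB 1 passed upwards and 2 downwards, and of 4 in adherent culture 3 and 1. The part of any of these cell types was not tested.

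The order in which members came up was read from the first sample with at least 50% of the highest FPKM of that gene in its series. In the first SFEB series Sox2 met this at 0 h, Sox12 at 1 h, Sox1 at 80 h, Sox3, Sox21 and Sox4 at 92 h, Sox6 at 103 h and Sox11, Sox5 and Sox9 at 126 h. In the parallel series Sox3 met it at 84 h, Sox1 and Sox12 at 106 h, Sox21 and Sox6 at 144 h and Sox4, Sox11, Sox5 and Sox9 at 216 h. In adherent culture Sox3 met it at 68.5 h, Sox1 and Sox21 at 80.5 h, Sox4 and Sox6 at 92.5 h, Sox11 at 125.5 h, Sox9 at 140.5 h and Sox5 at 144 h. With this limit SoxB1 genes came before SoxD genes and Sox9 in all 3 series. The order depends on the limit: with 25% of the highest value, or the middle of the log2 range, 49 of 60 times moved, and Sox3 was not later than Sox1 in 8 of the 9 combinations of series and limit. Both other limits put the onset of Sox9 in the first series at its 2 h value, before Sox1 and Sox3. A gene that is still rising at the last sample has its onset set partly by when sampling stopped, which was 142 h in the first series and 216 h in the others.

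The genes whose log2(FPKM + 1) courses were most like those of the members over the 22 SFEB samples, among 8918 genes reaching 10 FPKM, are given with their r in adherent culture. For Sox11 they were Cxadr and Sema4c, with Pearson r = 0.989 each in SFEB and 0.989 each over the 15 adherent samples. For Sox1 they were Mest and Rassf2 (0.975 each in SFEB, 0.955 and 0.954 in adherent culture), for Sox3 Mycl1 and Fndc3c1 (0.983 and 0.979, then 0.956 and 0.909), and for Sox21 Peg12 and Phc2 (0.976 and 0.973, then 0.970 and 0.925). The nearest genes of Sox4 were Zfp821 and D0H4S114 (0.975 and 0.970, then 0.936 and 0.963), of Sox6 Fezf1 and Scube1 (0.990 and 0.989, then 0.849 and 0.956), and of Sox9 Pdzd11 and Olfm2 (0.973 and 0.967, then 0.874 and 0.958). Sox2 and Sox12 had the least close neighbours, Csad at 0.880 and Ccpg1 at 0.863 for Sox2 and Chn1 at 0.913 and Zfp512 at 0.894 for Sox12. In adherent culture these were 0.874 and 0.695 for Sox2 and 0.707 and 0.846 for Sox12. Between members the highest r in SFEB was 0.959 for Sox5 and Sox9, and r of Sox2 with the other 9 members lay between -0.642 and -0.131. In adherent culture the highest was 0.989 for Sox1 and Sox3, and r of Sox2 with the others lay between -0.931 and -0.698. These values share a common trend over time and the same libraries, and they are descriptions.

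Levels of the members differed widely between single cells of a time point, and how much of this comes from missed transcripts was not tested. The 64 cells, 8 at each time, are given as log10(RPKM + 1), and the 8 cells of a time point are 1 sample, so no test was made between times. Between 5648 and 10437 genes were above 0 per cell, and the lowest median over cells, 6145 genes, was at 144 h. Values just above 0 were common, so cells above 0.5 RPKM are counted beside all cells above 0. The median cell held 2 members above 0.5 RPKM at 0 h, 4 at 106 h, 5 at 144 h and 5.5 at 216 h.

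Sox2 was above 0 in 63 of the 64 cells, the exception being at 84 h, but its level varied at every time. It ranged from 0.412 to 1.48 at 0 h (median 1.02), from 0.0544 to 1.57 at 106 h (median 0.563), from 0.0187 to 0.627 at 144 h (median 0.285) and from 0.454 to 2.07 at 216 h (median 0.933). The 8 cells at 144 h lay lowest, with a mean of 1.22 RPKM, while the parallel population had 102 FPKM. Sox1 was above 0.5 RPKM in 0 cells at 0, 9 and 60 h, in 1 cell each at 38 and 84 h, in 5 of 8 at 106 h, in 4 at 144 h and in 4 at 216 h. At 106 h the Sox1 cells split widely, with 4 cells at 9 RPKM or more, 1 of them at 68.9, and 3 cells below 0.5 RPKM.

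Sox3 was above 0.5 RPKM in some cells of a time point and listed at or near 0 in others. The table holds no read counts, so a listed 0 may be a transcript that was missed in that cell. It exceeded 0.5 RPKM in 4 of 8 cells at 84 h, 5 at 106 h and 6 at 144 h, with a median of 0.881 on the log10 scale at 144 h. At 216 h 7 of 8 cells were at 0 and the highest had 0.101, whereas the parallel population at 216 h had 20.4 FPKM of Sox3. Sox1 and Sox3 were above 0.5 RPKM together in 4 cells at 144 h and in 0 at 216 h. Sox2 was above 0.5 RPKM in all 8 of these 216 h cells.

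Sox21, Sox11 and Sox12 exceeded 0.5 RPKM in 7 or 8 of the 8 cells at 216 h. Sox21 was above 0.5 RPKM in 0 of 8 cells at 84 h, 4 at 106 h, 6 at 144 h and 7 at 216 h, and its range at 144 h ran from 0.0271 to 2.23. Sox11 was above 0.5 RPKM in 3 cells at 106 h, 8 at 144 h and 7 at 216 h, with medians of 0.0754, 1.22 and 1.55. Of the 24 cells from 106 to 216 h, 18 had Sox11 and 17 had Sox21 above 0.5 RPKM, and 14 had both. Sox12 was above 0.5 RPKM in 7 cells at 0 h, 2 at 9 h, 2 at 144 h and 8 at 216 h. The parallel population had 15.1 FPKM of Sox12 at 0 h, 9.36 at 9 h and 19.9 at 144 h, so the cells at 144 h did not follow it. The median number of genes above 0 was 6927 at 9 h and 6145 at 144 h against 8972 at 0 h, and its part in these counts was not tested.

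Sox4 was low in the single cells at times when it was high in the populations. All 8 cells at 106 h were listed at 0 for Sox4, while the population at that time had 36.8 FPKM. At 216 h Sox4 exceeded 0.5 RPKM in 3 of 8 cells, with a median of 0.0617 and a highest value of 1.16, against 109 FPKM in the population. For Sox11 at 216 h the mean over cells was 55.3 RPKM against 139 FPKM, and for Sox21 30.2 RPKM against 32.8 FPKM. Sox3 at 216 h was farther apart, at 0.0328 RPKM against 20.4 FPKM, and Sox1 at 144 h had 0.457 RPKM against 33.7 FPKM. RPKM of cells and FPKM of populations were computed and normalized separately, and the source of these differences was not tested.

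Sox6 and Sox9 exceeded 0.5 RPKM in few cells. Sox9 exceeded 0.5 RPKM in 0 of the 40 cells from 0 to 84 h and in 3 of 8 cells at each of 106, 144 and 216 h, with a highest value of 1.65 at both 144 and 216 h. Sox6 exceeded 0.5 RPKM in 1 cell at 106 h, 2 at 144 h and 1 at 216 h, the highest being 1.80 at 144 h. All 4 of those Sox6 cells also had Sox2, Sox21 and Sox11 above 0.5 RPKM, and 3 had Sox9. At 216 h cell 16 had 10.6 RPKM of Sox2 and 8.39 of Sox12 but 0.303 of Sox11, 0.158 of Sox1 and 0.106 of Sox21, and its pluripotency gene Utf1 was at 3.10 on the log10 scale, above the other 7 cells at 0.507 to 1.54.

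**Figure D3:**
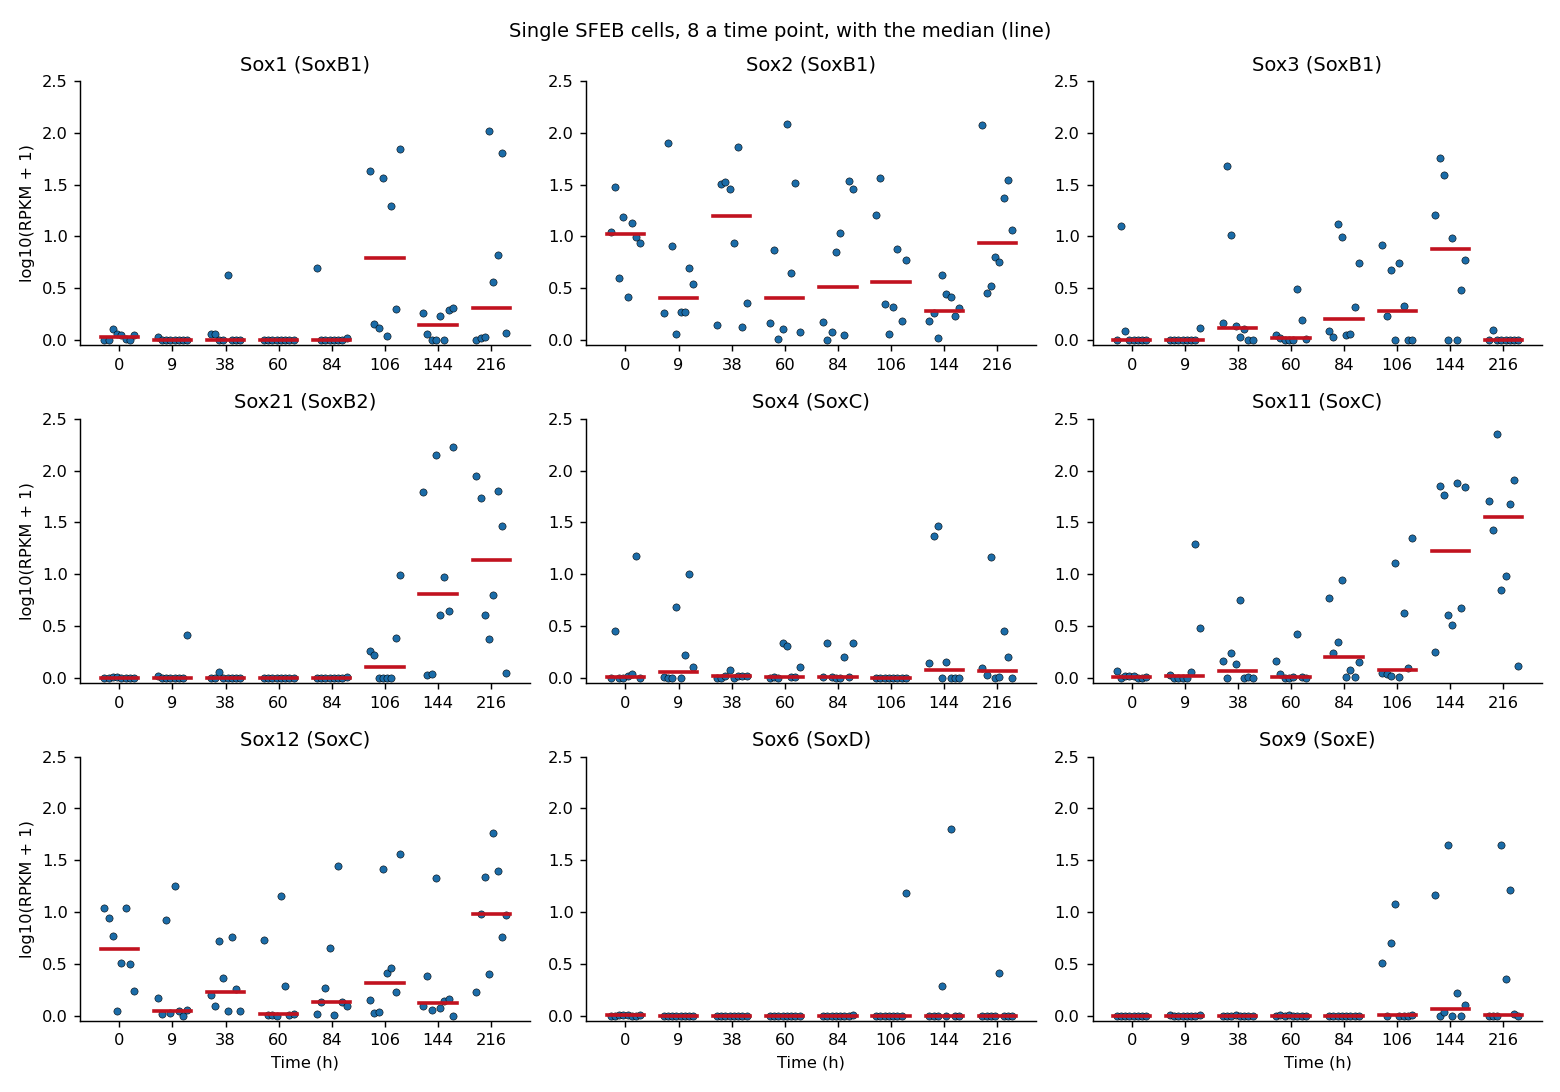
Level of 9 members in single SFEB cells, as log10(RPKM + 1) on the vertical axis, at 8 times on the horizontal axis, with each point 1 of 8 cells and the red line the median. Sox21 and Sox11 spread to most cells at 144 and 216 h, Sox3 is at or near 0 in all cells at 216 h, and Sox4 is at 0 in all cells at 106 h.

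In E14 cells Fyn mRNA over the whole gene was looked at first, while the deleted part itself was not examined. Fyn was 3.32 ± 0.640 FPKM (SD, n = 3) in WT and 0.765 ± 0.290 in Fyn KO at day 0, and 6.91 ± 2.45 against 1.30 ± 0.247 at day 4. Fyn was lower in KO at day 4 with adjusted p = 0.0193 and differed by -1.29 on the log2 scale at day 0 with adjusted p = 0.0601 (limma). Pairs of libraries in a group correlated at 0.931 to 0.981 on log2 values, and 2 libraries stood apart. WT day 4 replicate 1 had summed pluripotency genes of 554 FPKM and neural progenitor genes of 200 FPKM, where the other WT day 4 replicates had 1043 to 1092 and 41.2 to 88.9. Fyn KO day 0 replicate 3 had 14.7 FPKM of Sox12 against 4.61 and 5.64 in its group. Results are given with and without these where they matter. A single small nucleolar RNA, Snord22, took 23.1 to 28.5% of the summed FPKM in 3 of the day 4 libraries and was listed at 0 in the other 9. The 3 were WT day 4 replicates 1 and 2 and Fyn KO day 4 replicate 2. All genes named Snord or Snora together took 41.5% in WT day 4 replicate 1, which also stood apart. Their part in the Sox levels was not tested, and quantile normalization changed no member call.

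From day 0 to day 4 the SoxC genes, Sox1 and Sox3 rose in WT cells, and Sox2 was high on both days. Sox11 was 0.389, 0.0193 and 0.0248 FPKM in WT replicates 1 to 3 at day 0 and 43.3, 8.47 and 14.1 at day 4. Sox4 was 1.81, 1.85 and 0.856 FPKM at day 0 and 49.4, 25.2 and 34.0 at day 4, and Sox12 was 4.52, 3.30 and 3.06, then 15.9, 11.9 and 15.1. Day 4 was above day 0 in every replicate of all SoxC genes, without overlap. On the log2(FPKM + 1) scale Sox11 rose by 4.03 ± 0.48 (SE, adjusted p = 0.000325), Sox4 by 3.87 ± 0.38 (0.000143) and Sox12 by 1.73 ± 0.33 (0.00383).

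The SoxB1 genes in WT cells ran from 1.90, 0.662 and 0.986 FPKM at day 0 to 47.2, 7.81 and 11.6 at day 4 for Sox1. Sox3 was 0.640, 0 and 0 FPKM at day 0 and 26.9, 2.18 and 9.69 at day 4. Replicate 1 was far above the other replicates at day 4 for both. Sox1 rose by 3.04 ± 0.62 (adjusted p = 0.00546) and Sox3 by 3.06 ± 0.62 (0.00521), and without WT day 4 replicate 1 these were 2.31 (0.0147) and 2.31 (0.0129). Sox2 was 119, 122 and 124 FPKM at day 0 and 120, 174 and 113 at day 4, a difference of 0.13 ± 0.22 with adjusted p = 0.717. Sox21 was 1.46, 4.29 and 2.40 FPKM at day 0 and 29.5, 3.20 and 1.53 at day 4, so that only replicate 1 was above the day 0 range. Its difference of 0.96 ± 0.70 did not pass (adjusted p = 0.340) and was -0.12 without that replicate. In all, 5 of the 7 members tested rose and 0 fell in WT cells, where 15.5% of 12257 genes tested rose, 10.3% fell and 25.8% changed in either direction. Sox1, Sox3 and Sox11 reached 1 FPKM in fewer than 3 day 0 libraries of both genotypes together. They passed the filter only through day 4, so the counts of rising members in WT and Fyn KO are partly set by the filter. The groups did not overlap for 5 of the 7 tested members, and for 42.2% of genes tested. Sox5 and Sox9, near 0 FPKM at day 0 and not tested, did not overlap between days in either genotype, but most of their values lie near 0. In Fyn KO Sox9 was at most 0.0397 FPKM at day 0 and at least 0.0485 at day 4. The share of genes without overlap covers tested genes only, so this is not read as a rise.

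In Fyn KO cells 2 of 7 tested members rose and 0 fell, where 11.8% of genes rose, 7.56% fell and 19.3% changed, and the groups did not overlap for 3 of the 7 tested members, Sox3, Sox4 and Sox11, and for 38.7% of genes tested. Sox11 was 0.0460, 0.00623 and 0.921 FPKM at day 0 and 7.16, 5.23 and 10.6 at day 4, and Sox4 was 2.21, 0.788 and 4.98, then 24.02, 29.9 and 31.1. Both rose without overlap, Sox11 by 2.73 ± 0.48 (adjusted p = 0.00369) and Sox4 by 3.17 ± 0.38 (0.000461). Sox3 was 0.0799, 0 and 1.13 FPKM at day 0 and 2.68, 2.09 and 4.45 at day 4, with a difference of 1.58 ± 0.62 (adjusted p = 0.0945). Sox12 was 5.64, 4.61 and 14.7 FPKM, then 11.01, 13.7 and 17.5, with a difference of 0.82 ± 0.33 (adjusted p = 0.0995). Without both libraries that stood apart 4 members rose, Sox3 by 1.93 (0.0122) and Sox12 by 1.28 (0.00247) being added. That choice was made after seeing the data. Fyn KO day 0 replicate 3 was named by its high Sox12 level. A larger Sox12 rise without it was therefore set in advance and is no support. Sox1 was 0.854, 0.722 and 1.80 FPKM at day 0 and 0.990, 1.27 and 7.08 at day 4, with overlapping groups and a difference of 0.68 ± 0.62 (adjusted p = 0.469). Over the alternative runs that difference went from 0.0364 to 1.05. Sox2 was 162, 154 and 155 FPKM at day 0 and 87.9, 178 and 127 at day 4, a difference of -0.32 ± 0.22 (adjusted p = 0.339), and Sox21 was 0.416, 1.09 and 0.727, then 0.171, 0.841 and 0.587, a difference of -0.19 ± 0.70 (0.871).

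**Figure D4:**
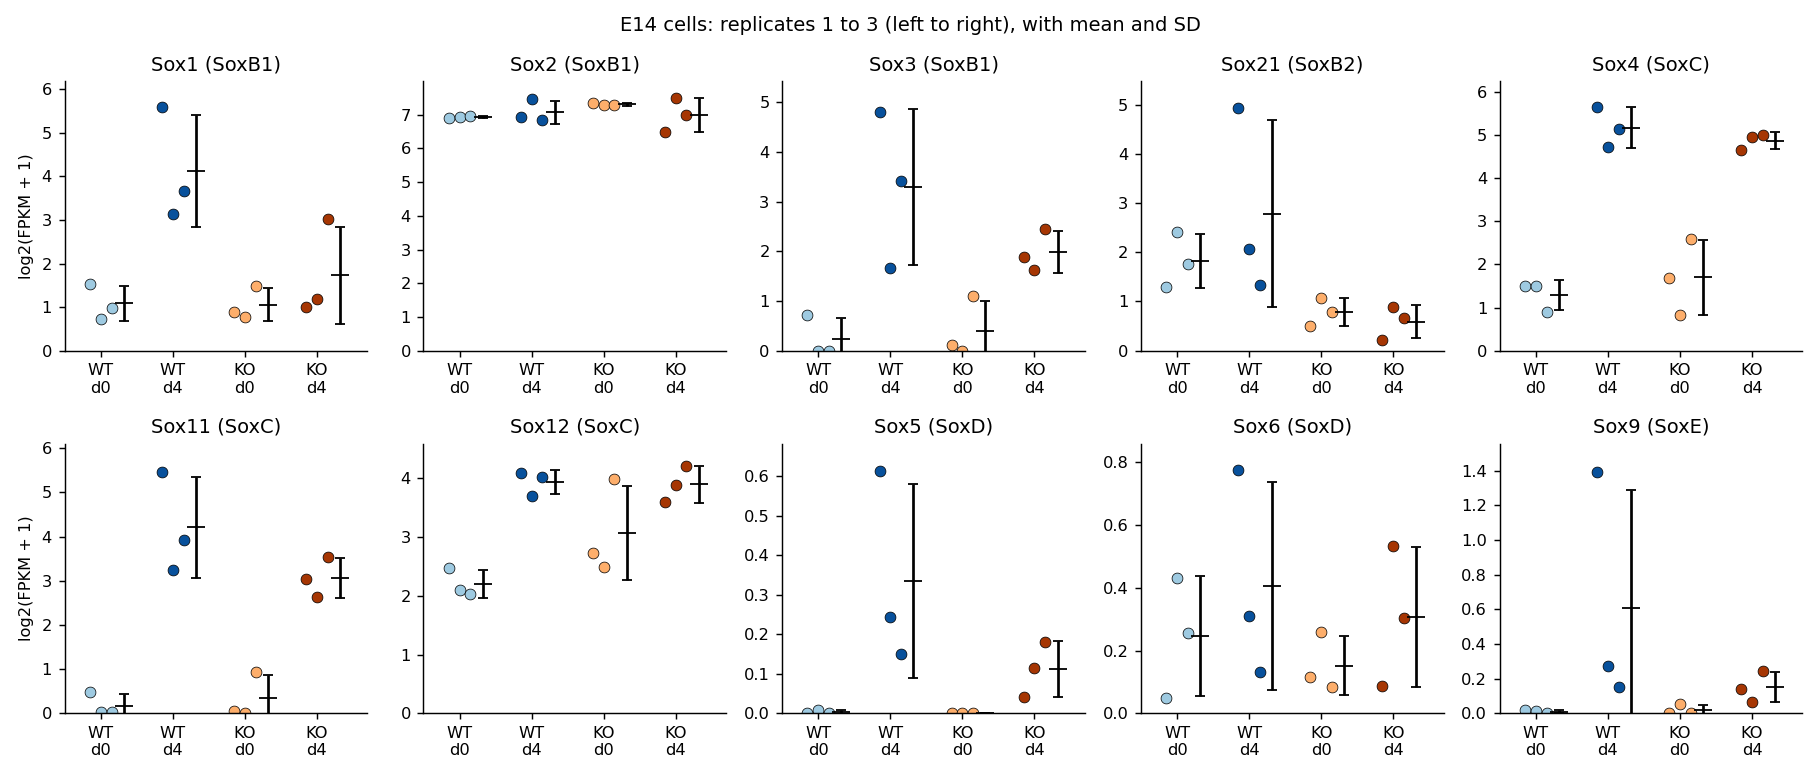
Level of each member in E14 cells as log2(FPKM + 1) on the vertical axis for WT and Fyn KO at day 0 and day 4, with replicates 1 to 3 as points from left to right and the mean and SD beside them. Sox4 and Sox11 are above their day 0 values in all day 4 replicates of both genotypes. WT day 4 replicate 1 is the highest point for every member but Sox2 and Sox12.

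The direct comparison of Fyn KO with WT sets 1 KO clone beside WT cells, so loss of the kinase cannot be told apart from other differences of that clone. At day 4, 0 of 7 members passed, where 9 of 12257 genes did (0.0734% in all, with 0.00816% higher and 0.0653% lower, and 1483 at an unadjusted p under 0.05). Sox1 had the lowest p of the members, with 7.81 to 47.2 FPKM in WT against 0.990 to 7.08 in KO and a difference of -2.40 ± 0.62 (95% interval -3.76 to -1.04, adjusted p = 0.156). Sox21 differed by -2.19 ± 0.70 (adjusted p = 0.237), Sox3 by -1.31 ± 0.62 (0.427) and Sox11 by -1.14 ± 0.48 (0.373). KO lay below WT in 3 of 3 pairs of same-numbered replicates for Sox1, Sox21, Sox3 and Sox11, in 2 of 3 for Sox4 and in 1 of 3 for Sox2 and Sox12. The share of all genes with such pairs was not taken, and the pairing is only inferred, so these counts are descriptions. For Sox1 and Sox21 the count follows from groups that do not overlap. Groups did not overlap for 2 of the 7 tested members, Sox1 and Sox21, and for 16.5% of genes tested. Without WT day 4 replicate 1 the differences were -1.67 for Sox1, -1.11 for Sox21, -0.56 for Sox3 and -0.51 for Sox11. Sox2, Sox4 and Sox12 lay close together in both genotypes, with differences of -0.08 (95% interval -0.57 to 0.41), -0.30 (-1.13 to 0.53) and -0.03 (-0.75 to 0.68).

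At day 0, 0 of 7 members passed, where 21 genes did (0.171%, with 0.0408% higher and 0.131% lower, and 1785 at an unadjusted p under 0.05). Sox12 had the lowest p, with 3.06 to 4.52 FPKM in WT and 4.61 to 14.7 in KO, a difference of 0.87 ± 0.33 (adjusted p = 0.256). This was 0.41 without both libraries that stood apart, of which Fyn KO day 0 replicate 3 was named by its high Sox12 level. Groups did not overlap for 3 of the 7 tested members, Sox2, Sox21 and Sox12, and for 21.4% of genes tested. The test of whether the day 4 change itself differed between genotypes passed for 0 genes (537 at an unadjusted p under 0.05). Sox1 gave a difference of -2.36 ± 0.88 in that test (adjusted p = 0.997, limma), Sox3 -1.48 ± 0.88, Sox11 -1.30 ± 0.68 and Sox12 -0.90 ± 0.47. Without WT day 4 replicate 1 these were -1.63, -0.72, -0.67 and -0.83. Without both libraries that stood apart they were -1.42, -0.38, -0.37 and -0.37. The passing of Sox1, Sox3 and Sox12 in WT but not in KO is therefore not shown to be a difference between genotypes.

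**Figure D5:**
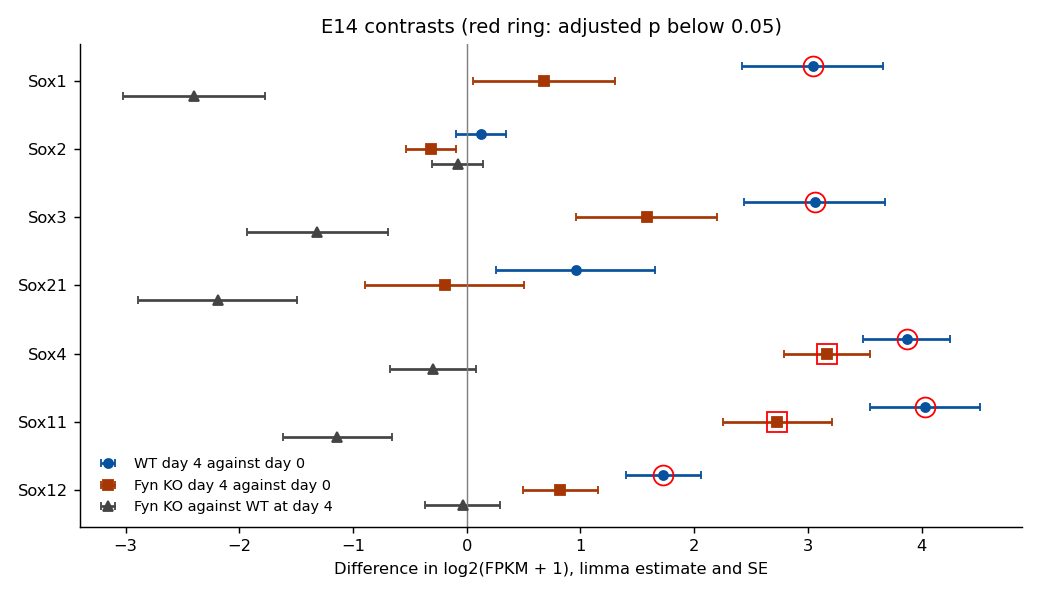
Differences in log2(FPKM + 1) on the horizontal axis, as limma estimates with SE, for the 7 members tested in E14 cells, with marker shapes for 3 comparisons and red rings for adjusted p under 0.05. WT day 4 against day 0 is ringed for 5 members, Fyn KO day 4 against day 0 for 2, and Fyn KO against WT at day 4 for 0.

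Sox5, Sox6 and Sox9 passed 1 FPKM in 1 E14 library at most and were not tested. Sox9 was 1.63, 0.207 and 0.110 FPKM in WT at day 4 and 0.103, 0.0485 and 0.185 in KO. Sox6 was at most 0.710 FPKM and Sox5 at most 0.529, both in WT day 4 replicate 1. Sox5 was listed at 0 in all 3 KO replicates at day 0.

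Marker genes in the same E14 libraries moved beside the members. Of 12 pluripotency genes 9 fell in WT and 7 in KO from day 0 to day 4, led in WT by Tfcp2l1, a factor of naive pluripotency, at -4.62 ± 0.60 (adjusted p = 0.000505). Of 7 tested neural progenitor genes 5 rose in WT and 1 in KO, led in WT by Pou3f1, a POU factor of early neural induction, at 3.82 ± 0.42 (0.000218), and of 6 tested neuronal genes 3 rose in WT while 1 rose and 1 fell in KO, led in WT by Gap43, a growth cone protein, at 2.85 ± 0.49 (0.00231). Listed genes of other lineages moved as well, which in bulk samples does not show that such cells were present. Of 4 tested endoderm genes 2 rose in WT and 0 in KO, led in WT by Dab2, an endocytic adaptor, at 3.15 ± 0.83 (0.0175), and their sum over 8 listed genes was 22.6 to 91.2 FPKM in WT and 2.99 to 17.9 in KO at day 4. Of the 5 tested neural crest genes 3 fell in WT while 1 rose and 1 fell in KO, led in WT by Tfap2a at -2.31 ± 0.37 (0.00173). In WT 1 of 3 tested glial genes, 1 of 1 cartilage genes and 2 of 2 fibroblast genes rose, led by Slc1a3, a glutamate transporter of radial glia, at 2.80 ± 0.32 (0.000271), the collagen gene Col2a1 at 1.53 ± 0.39 (0.0146) and Thy1, a surface protein of fibroblasts and neurons, at 1.72 ± 0.50 (0.0254). In KO Slc1a3 rose by 2.73 ± 0.32 (0.000448) and Thy1 by 1.55 ± 0.50 (0.0478), 1 glial gene fell and the cartilage gene and the other fibroblast gene did not pass. None of these lists had a gene that passed between genotypes at day 4. The part of such cells, if present, in the Sox levels was not tested.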

How the data were processed

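RNA-seq values of 113 mouse samples were used. The authors' submission notes name TopHat2 2.0.8b and Cufflinks 2.1.1, with build mm9 for R1 and mm10 for E14 samples, whereas the paper's methods name earlier releases. The FPKM values of adherent and E14 samples were used as deposited. The SFEB population values were deposited by the authors as FPKM after ComBat batch correction, whose batches are not given in the sources used here, and 1256 values below 0 were set to 0, none in a member. Single cells were deposited on a log10 scale, as log10(RPKM + 1), after the authors had quantile normalized the cells, so a cell's RPKM is set by the rank of the gene in it (RPKM summed to 437419 to 439008 per cell). The methods also name a filter that kept genes above 0.5 RPKM in 8 or more cells, but 2008 of the 11449 genes in the table, Sox6 with 4 cells among them, are above 0.5 RPKM in fewer. The paper states a minimum number of reads per library, while the tables hold no counts, so the depth of each sample is not given here and no counting interval can be.

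Members and gene lists were chosen with earlier results of these data known. Tests used limma 3.58.1 in R 4.3.3 on log2(FPKM + 1), which understates changes of low genes, with trended variance, a filter that kept genes reaching 1 FPKM in 3 or more samples, and Benjamini-Hochberg adjustment over all genes at 0.05. E14 groups shared 1 model. Time courses used a natural spline with 3 degrees of freedom (with a term for the series in SFEB), so their p-values treat scatter about a smooth curve as error. All tests were two-sided. Nothing in the labels says that E14 replicates came from separate cultures, so p-values may measure technical spread. Residuals of libraries with the same replicate number correlated at 0.199, 0.220 and 0.224 between WT days and at 0.136, 0.258 and 0.240 between genotypes at day 4, which was taken as pairing inferred from the data. In simulated data for WT day 4 against day 0, 45.5% of 200 genes changed by 1 on the log2 scale were recovered (11936 genes, 5 false calls) and 88% of those changed by 2 (11927 genes, 11 false calls), so a difference near 1 can be missed. The simulation changed far fewer genes than the 3166 of 12257 called in the data. Its adjustment was therefore stricter, and its recovery need not be that of the data.

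Named genes were all members, the 2 genes nearest in course to each member reaching 5 FPKM, and from each list the called genes with the largest rise and fall in WT; Snord22, Utf1 and Sox2ot were named after their values were seen. Figures were drawn with matplotlib 3.10.9, and Python 3.11.15 with pandas 2.3.3 was used. The closing section gives the alternatives.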

Additional observations from a re-analysis of the deposited data

Results flagged for a closer look

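Single cells far from the other 7 cells of their time point were found in 30 of the 68 combinations of member and time with any spread, each time a cell on the high side; chance alone flags about 1 in 20 groups under an even spread, and groups with most cells at 0 are flagged far more easily. Values are log10(RPKM + 1). For Sox1 these were 0.0286 at 9 h, 0.627 at 38 h, 0.00449 at 60 h and 0.696 at 84 h. For Sox2 it was 1.90 at 9 h. For Sox3 they were 1.10 at 0 h, 0.112 at 9 h, 0.490 at 60 h and 0.101 at 216 h. For Sox21 they were 0.415 at 9 h, 0.0522 at 38 h, 0.00270 at 60 h and 0.989 at 106 h. For Sox4 they were 1.17 at 0 h, 0.0781 at 38 h and 1.16 at 216 h. For Sox11 they were 0.0648 at 0 h, 1.29 at 9 h, 0.749 at 38 h and 0.428 at 60 h. For Sox12 they were 1.44 at 84 h and 1.33 at 144 h. For Sox6 they were 0.000331 at 60 h, 0.00612 at 84 h, 1.18 at 106 h, 1.80 at 144 h and 0.412 at 216 h. For Sox9 they were 0.000286 at 0 h, 0.00355 at 9 h and 0.00122 at 38 h.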

How the results depend on the processing

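The count of members that changed over time in SFEB culture (10) was the same in every alternative run, and that of members that rose in WT cells (5) in every one but no filter on low values, which gave 6. In adherent culture 8 members passed without the 144 and 216 h samples and 10 with no filter on low values. In Fyn KO cells 4 members rose without both libraries that stood apart, which was chosen after seeing the data, and 2 to 3 when 1 replicate was left out; Sox3 passed with pseudocount 0.1 and with only the groups compared (adjusted p = 0.0479 and 0.0292) and without WT day 4 replicate 1 or 2 (0.0324 and 0.0252), and Sox12 without Fyn KO day 0 replicate 3 (0.00240). Fyn KO day 0 replicate 3 was named by its high Sox12 level, so the Sox12 call without it is no support. The cause was not tested.

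Counts over all genes moved more. Leaving out 1 replicate gave 1831 to 3528 genes for WT day 4 against day 0, 1041 to 3063 for Fyn KO day 4 against day 0, 5 to 14 for Fyn KO against WT at day 4, 4 to 128 at day 0 (128 without WT day 0 replicate 1) and 0 to 4 for the difference between genotypes. With no filter the last 3 comparisons gave 24, 35 and 1 genes, with only the groups compared 5 and 2, and without both libraries that stood apart 64 at day 0. Quantile normalization gave 17 genes for Fyn KO against WT at day 4, and at day 0 moved the share of higher calls from 23.8% to 35%. The replicate block gave 3563, 2779, 10, 38 and 2 genes in the 5 comparisons and changed no member call; same-number residuals correlated at 0.0239, 0.0899 and 0.00112 between Fyn KO days and at 0.0628, 0.339 and -0.115 between genotypes at day 0, which does not pair those samples, and not every sample correlated best with its own number.

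Signs turned only for members that had not passed, mostly when 1 replicate was left out. Over these, WT day 4 against day 0 ran from -0.0651 (without WT day 4 replicate 2) to 0.243 for Sox2 and from -0.116 (without WT day 4 replicate 1, alone or with the other library that stood apart) to 1.68 for Sox21. Fyn KO against WT at day 4 ran from -0.330 to 0.176 for Sox2 and from -0.193 to 0.117 for Sox12, which was 0.0101 with quantile normalization and 0.0414 without both libraries. At day 0 it ran from -0.249 to 0.191 for Sox1, which was 0.0219 with quantile normalization. Without Fyn KO day 0 replicate 3, alone or with WT day 4 replicate 1, Sox3, Sox4 and Sox11 were -0.183, -0.0361 and -0.142 at day 0, against highest values of 0.401, 0.834 and 0.32. In single cells 59 of 72 counts of cells changed between above 0 and above 0.5 RPKM, and 1 of 72 means (Sox6 at 144 h, 0.947) moved by more than the SD with the log of the mean. The tables hold no read counts, so a member listed at 0 may lie below detection.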

Other observations

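Sox genes outside the members were followed as a list of 9. In SFEB culture 4 of these were tested, with 2 rising and 1 falling, and in adherent culture 6, with 5 rising and 1 falling, where 47.9% and 42.2% of genes rose. Sox15, which is known from mESCs, was 8.42 FPKM at 0 h, 17.5 at 22 h and 1.82 at 142 h in the first SFEB series, and 10.96, 24.8 at 20.5 h and 2.60 at 216 h in adherent culture, with the highest values within the first day in these 2. In the parallel SFEB series it was 10.7 FPKM at 0 h, 3.03 at 60 h, 6.41 at 106 h, 7.63 at 144 h and 0.926 at 216 h, without an early peak. Sox17, a factor of definitive and extraembryonic endoderm, was 0.0445 to 1.95 FPKM in adherent culture up to 140.5 h, 10.9 at 144 h and 5.42 at 216 h. Summed FPKM of the 7 endoderm genes in that table was 44.2 at 140.5 h, 116 at 144 h and 94.4 at 216 h. In E14 cells 2 of the 9 were tested, Sox13 and Sox15, and neither passed in any of the 5 comparisons.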
